A study of Mus musculus with 19 samples.

Results

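The libraries described here are the 6 control libraries of experiment 1, made from the dorsal hippocampus of mice that had all been exposed to SOR. The 2 groups were chosen by measured values: the 6 were ranked by their level of Arc, and the 3 libraries with the highest Arc were set against the 3 with the lowest. The 6 are part of a series of 19 libraries of total RNA depleted of ribosomal RNA, all from male C57BL/6J mice of 2 to 4 months. All 6 came from tTA+/DN- mice: they carry the tetracycline transactivator tTA, which drives transgenes under a tet promoter, and lack DN, the transgene of the Nr4ADN line. The labels give SOR as an abbreviation only and do not name the promoter that drives tTA.

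The other 13 libraries were used for tests, since the ranking did not use them. Experiment 1 also held 5 libraries from tTA+/DN+ mice exposed to SOR. Experiment 2 held 4 control libraries after SOR and 4 from mice left in the homecage, all DN-. Among these, SOR replicate 1 and homecage replicates 1 and 2 were tTA-/DN-, and the other 5 were tTA+/DN-. The labels number the replicates without naming animals, so the tests measure the spread between these libraries, which may be in part technical.

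Arc encodes a protein of the synapse that takes part in the removal of AMPA receptors, and its transcription starts within minutes of neuronal activity. It belongs to the immediate early genes, which need no new protein to be transcribed and include the transcription factors of the FOS, EGR and NR4A families. Kinases of the MAP kinase pathway and the factors CREB and SRF switch these genes on, and phosphatases of the DUSP family, themselves induced, switch the kinases off. ER chaperones fold proteins in the endoplasmic reticulum and are induced by the factors ATF6 and XBP1, which act on ER stress response elements in their promoters.

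Members of both gene groups described below carry short motifs in the window from 250 bases before to 50 bases after the start of transcription. The 4 windows shown are those of 2 early genes and of 2 ER genes, all higher in each high Arc library than in each low one. They are the plus strand of GRCm38.p6 as RefSeq gives it. In the windows of Fos and Nr4a1, capitals mark TGACG, the core of the cyclic AMP response element bound by CREB, or its reverse complement CGTCA. In the windows of Hspa5 and Dnajc3, capitals mark the ER stress response element, which starts with CCAAT and ends with CCACG, with 9 bases of any kind between them.
Fos, chr12:85473640-85473939: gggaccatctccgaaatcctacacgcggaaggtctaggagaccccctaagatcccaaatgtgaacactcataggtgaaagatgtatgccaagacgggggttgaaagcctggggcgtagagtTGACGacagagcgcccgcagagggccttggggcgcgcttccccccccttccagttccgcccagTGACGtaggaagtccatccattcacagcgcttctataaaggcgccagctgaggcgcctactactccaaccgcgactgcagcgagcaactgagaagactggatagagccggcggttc
Nr4a1, chr15:101266596-101266895: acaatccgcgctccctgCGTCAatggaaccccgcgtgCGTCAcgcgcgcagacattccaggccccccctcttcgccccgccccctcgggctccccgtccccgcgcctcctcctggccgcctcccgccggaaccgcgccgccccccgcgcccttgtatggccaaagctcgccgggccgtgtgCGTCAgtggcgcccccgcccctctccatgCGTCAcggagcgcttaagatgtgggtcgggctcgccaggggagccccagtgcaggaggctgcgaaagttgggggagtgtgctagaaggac
Hspa5, chr2:34771840-34772139: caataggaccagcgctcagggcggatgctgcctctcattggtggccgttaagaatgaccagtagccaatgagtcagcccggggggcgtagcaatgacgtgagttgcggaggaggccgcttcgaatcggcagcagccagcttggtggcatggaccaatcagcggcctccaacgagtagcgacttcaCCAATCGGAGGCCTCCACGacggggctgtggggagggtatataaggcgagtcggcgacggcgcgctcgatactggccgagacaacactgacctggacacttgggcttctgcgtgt
Dnajc3, chr14:118937682-118937981: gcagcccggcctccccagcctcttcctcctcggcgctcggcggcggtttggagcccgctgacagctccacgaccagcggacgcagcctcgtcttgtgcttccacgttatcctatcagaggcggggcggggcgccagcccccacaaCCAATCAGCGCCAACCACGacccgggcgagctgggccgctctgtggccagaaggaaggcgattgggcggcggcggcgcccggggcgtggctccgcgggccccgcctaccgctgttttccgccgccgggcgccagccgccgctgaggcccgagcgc
Searched on both strands, TGACG was in 20.8% of all 32851 RefSeq windows of 300 bases. It was in 25 of the 37 windows that matched 28 of the 34 genes in the FOS and JUN, EGR and NR4A and other early gene lists, and in 7 of the 15 windows of the ER genes, among them that of Hspa5. The full element TGACGTCA was in 1.79% of all windows, in 2 of the 37 early windows and in none of the ER windows. The CArG box, the motif of SRF, was in 1.63% of all windows, in 5 of the 37 early windows and in 1 of the ER windows. Several windows can belong to 1 gene: the 5 were those of 2 of the 28 early genes, Egr2 and Srf, where 1.81% of all genes had a match. By gene, TGACG was in 19 of the 28 early genes and in 23.0% of all genes. The ER stress response element was in 0.119% of all windows and in 7 of the 15 windows matched to the 18 ER genes, those of Calr, Canx, Creld2, Dnajc3, Hsp90b1, Hspa5 and Pdia6. A match describes these letters and does not show that a factor binds there.

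Arc (ENSMUSG00000022602.14, chromosome 15, 74669083 to 74672570, minus strand, GRCm38) was at 296.5, 212.5 and 173.7 CPM (a gene's count relative to the library total) in control replicates 2, 1 and 6, the high Arc libraries. It was at 137.6, 102.2 and 89.7 CPM in replicates 5, 3 and 4, the low Arc libraries. Below, values of the 6 libraries are always given in this order of Arc. The high and low groups met at 173.7 and 137.6 CPM, and the ratio of their mean CPM was 1.05 on the log2 scale. Arc chose the groups, so these values are a description with no test, and so is every comparison of high with low below.

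The range of Arc among these 6 libraries was wider than in any other group. Arc was at 84.5 to 136.4 CPM in the 5 DN libraries (median 116.3), at 120.6 to 142.3 CPM in the 4 SOR libraries of experiment 2 and at 67.9 to 84.5 CPM in the 4 homecage libraries. The 3 high libraries thus lay above every other library of the series, and the lowest of the 6 lay just above the highest homecage library. The table of 51789 genes held between 30855629 and 47992063 counts in each of these 6 libraries, and between 22258159 and 66991576 over all 19. The median log2 ratio of all genes between high and low was -0.002 in CPM and -0.007 after scaling by the trimmed mean of M values (TMM). Both scalings set this median near 0, so it does not speak to the total amount of RNA.

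Of 17015 genes other than Arc with a mean of at least 1 CPM over the 6 libraries, 1201 (7.06%) were higher in all 3 high than in all 3 low libraries, and 1051 (6.18%) were lower. A ratio of mean CPM of at least 1.5-fold without overlap was seen in 72 genes (0.423%) that were higher and in 21 (0.123%) that were lower. Of the 72, 59 were protein coding, a share not counted over all genes. The early and activity lists described below held 6 of the 72 and 63 of the 17015 genes. The choroid plexus markers held 4 of the 72 and 8 of the 17015. Replicate 1 held the highest value for 53 of them, replicate 2 for 15 and replicate 6 for 4.

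Choroid plexus RNA moved with the high group in replicates 1 and 2. The choroid plexus is the epithelium that makes cerebrospinal fluid and lies beside the hippocampus. Its 8 markers summed to 1356, 4174 and 21.5 CPM in replicates 2, 1 and 6, and to 26.5, 26.7 and 25.4 CPM in replicates 5, 3 and 4. All 8 had a ratio above 1, where 49.1% of all genes did (median log2 ratio 4.61), and 4 were higher without overlap (7.06% of all genes). Ttr, the transthyretin that carries thyroid hormone and the most counted of the 8, was at 1234, 3842 and 4.23 CPM in the high libraries and at 9.73, 8.27 and 7.99 CPM in the low ones. Replicate 6 was thus below every low library in Ttr, while the other 2 high libraries were far above. Kcne2, a potassium channel subunit, was the only one of the 8 with no count in a low library (replicate 4).

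The 10 highest ratios among genes with a mean of at least 5 CPM and no overlap were those of Kcne2, Tmem72, Clic6, Folr1, Col8a1, Prlr, Slc2a12, Frem1, Htr2c and Lepr, with log2 ratios from 6.91 down to 1.16. Several passed the mean of 5 CPM only through replicates 1 and 2: the low mean was 0.0837 CPM for Kcne2 and 2.76 CPM for Prlr. All 10 were highest in replicate 1 and next highest in replicate 2. Htr2c, a serotonin receptor gene, was at 32.3, 62.8 and 16.6 CPM in the high and at 14.9, 15.3 and 14.8 CPM in the low libraries. Lepr, the leptin receptor gene, was at 7.31, 13.1 and 5.30 CPM in the high and at 4.56, 3.13 and 3.78 CPM in the low libraries. Replicate 6 stood just above the low libraries in both. Replicate 6 alone, set against the 3 low libraries, was higher without overlap and by at least 1.5-fold in 108 genes (0.635%), and only 20 of the 72 were among them. It was lower by as much in 153 genes (0.899%). The main results below are therefore also given as the log2 ratio of replicate 6 alone to the low mean. In bulk tissue, more cells of a type and more RNA per cell cannot be told apart.

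**Figure D1:**
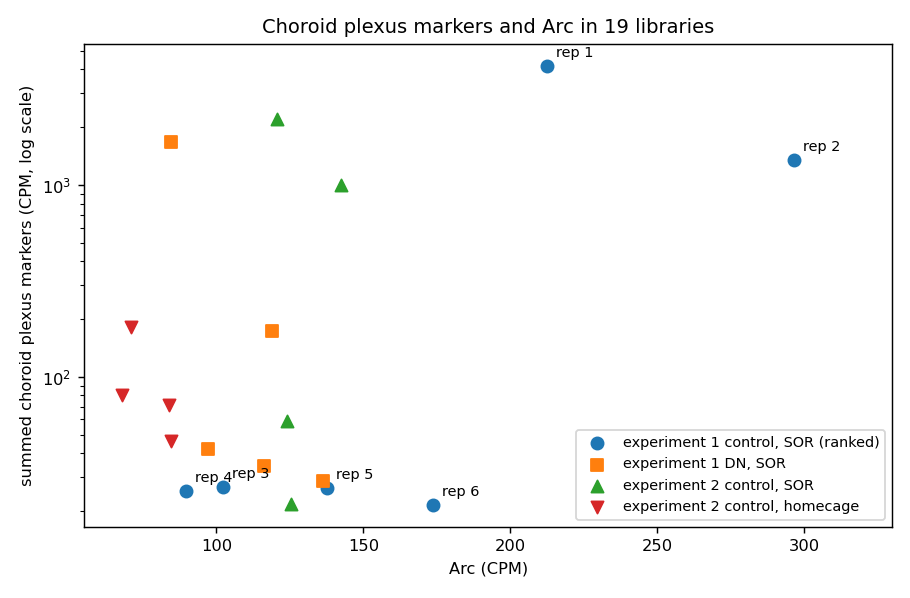
Summed CPM of the 8 choroid plexus markers (log axis) against Arc CPM in the 19 libraries, 1 point each, with the 6 ranked libraries numbered by replicate. Replicates 1 and 2 reach 4174 and 1356 CPM, while replicate 6 has high Arc at 21.5 CPM of markers, and libraries of the DN and experiment 2 SOR groups hold such RNA at lower Arc.

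Early and activity-regulated genes were for the most part higher in the high Arc libraries, with the largest ratios in Egr2, Fos, Npas4, Nr4a1 and Atf3. Of 66 genes in 5 lists, 63 had a mean of at least 1 CPM, and 57 of those had a ratio above 1, where 49.1% of all genes did. Without overlap, 19 of the 63 were higher (7.06% of all genes) and none was lower. The median log2 ratio of the 63 was 0.18. Replicate 6, the high library whose choroid plexus markers were at the level of the low ones, lay above all 3 low libraries in 40 of the 63, where it did so in 27.5% of all genes.

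Fos encodes a subunit of the AP-1 transcription factor and is the classic marker of recently active neurons (ENSMUSG00000021250.13, chromosome 12, 85473890 to 85477273, plus strand). It was at 23.1, 17.8 and 15.4 CPM in the high and at 13.3, 7.71 and 6.04 CPM in the low libraries. The order of the 6 libraries was that of Arc at every rank. The log2 ratio was 1.06, as large as that of Arc, and 0.78 for replicate 6 alone. Junb, another AP-1 subunit (chromosome 8, 84974484 to 84978718, minus strand), was at 47.7, 36.2 and 31.7 CPM against 28.7, 20.4 and 18.9 CPM. It also followed Arc at every rank, with a log2 ratio of 0.76 and 0.48 for replicate 6 alone.

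The rest of the family did not separate the groups. Fosb, the source of the stable isoform that builds up under repeated activity, was at 6.60, 4.602 and 7.50 CPM against 5.52, 4.10 and 3.73 CPM (log2 ratio 0.49). Fosl2 had a log2 ratio of 0.26 and Jun of -0.08, and in all of these at least 1 low library lay above a high one. Of the 6 members measured above 1 CPM, 5 had a ratio above 1 (49.1% of all genes; median log2 ratio 0.37) and 2 were higher without overlap (7.06% of all genes). Jund had no count in any of the 6 libraries.

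Nr4a1, the nuclear receptor gene also called Nur77 (ENSMUSG00000023034.6, chromosome 15, 101254269 to 101274795, plus strand), was at 51.8, 41.7 and 39.2 CPM in the high and at 31.7, 23.8 and 20.1 CPM in the low libraries. It followed Arc at every rank (log2 ratio 0.81, replicate 6 alone 0.64). Its relatives did not: Nr4a2 had a log2 ratio of 0.14 and Nr4a3 of 0.24, and replicate 5, a low library, held the highest Nr4a2 of all 6 at 68.1 CPM. The NR4A family is the one that the Nr4ADN line is named for, and none of the 6 mice carried DN.

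Egr2, a zinc finger factor (chromosome 10, 67535475 to 67542188, plus strand), had the largest log2 ratio of the early lists, 1.56, at low counts. It was at 4.73, 2.56 and 3.42 CPM against 1.76, 1.29 and 0.565 CPM, the last of these being 22 counts. Replicate 6 exceeded replicate 1 here, and the groups were well apart (replicate 6 alone 1.504). Egr4 was higher without overlap at a log2 ratio of 0.48. Egr1, the most studied member in memory, overlapped: it was at 54.4, 39.2 and 53.4 CPM against 48.5, 33.9 and 26.5 CPM (log2 ratio 0.43). Egr3 was at a log2 ratio of 0.11. In the EGR and NR4A list, 8 of 9 genes had a ratio above 1 and 3 were higher without overlap, against 7.06% of all genes (median log2 ratio 0.24).

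**Figure D2:**
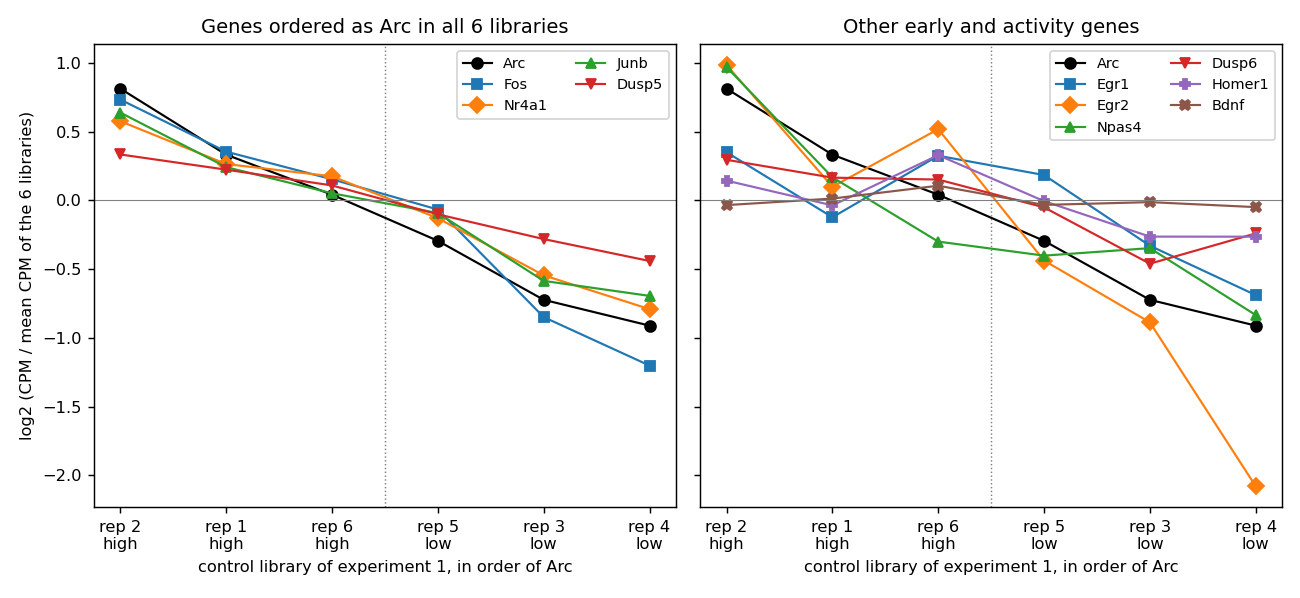
Log2 of CPM over the mean CPM of the 6 libraries (vertical axis) in the 6 ranked libraries in order of Arc (horizontal axis); the dotted line parts the 3 high from the 3 low libraries. Fos, Nr4a1, Junb and Dusp5 are lower with Arc at each step from left to right, while Egr1 and Homer1 are high in replicates 2 and 6 and Bdnf is nearly level.

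Npas4, a factor induced by calcium in neurons, was at 12.2, 7.0003 and 5.06 CPM in the high and at 4.71, 4.90 and 3.49 CPM in the low libraries. The log2 ratio was 0.89, 0.47 without replicate 2 and 0.21 for replicate 6 alone. Atf3, a stress-induced factor, was at 2.23, 2.20 and 1.96 CPM against 1.21, 1.5 and 0.951 CPM (log2 ratio 0.80, replicate 6 alone 0.69). Its counts were low, from 37 in replicate 4 to 95 in replicate 2. Nfil3, Klf10 and Srf were also higher without overlap, with log2 ratios of 0.48, 0.21 and 0.18. Of the 17 other early genes measured above 1 CPM, 15 had a ratio above 1 and 5 were higher without overlap, against 7.06% of all genes (median log2 ratio 0.25).

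Genes that feed back on the MAP kinase pathway were higher in part. Dusp6, a phosphatase of ERK in the cytoplasm, was at 100.6, 91.9 and 91.0 CPM against 79.1, 59.6 and 69.4 CPM (log2 ratio 0.45, replicate 6 alone 0.39). Dusp5, its nuclear counterpart, was at 20.0, 18.6 and 17.1 CPM against 14.8, 13.1 and 11.7 CPM and followed Arc at every rank (log2 ratio 0.49). Dusp1 and Spry4, a Sprouty inhibitor of the pathway, were higher without overlap at log2 ratios of 0.37 and 0.51. In all, 10 of 11 members measured above 1 CPM had a ratio above 1 and 5 were higher without overlap, against 7.06% of all genes (median log2 ratio 0.11).

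The activity-induced effectors, many of them synaptic or secreted proteins, were for the most part slightly higher. Homer1, a scaffold gene with an activity-induced short form, was at 385, 339 and 437 CPM in the high and at 347, 289.9 and 289.8 CPM in the low libraries (log2 ratio 0.33). Replicate 5 lay above replicate 1, so the groups overlapped. Bdnf, the neurotrophin, was between 70.7 and 78.8 CPM in all 6 (log2 ratio 0.06), and Plk2, Rgs4 and Scg2 were at log2 ratios of -0.03, 0.05 and 0.01. Sik1, Trib1, Tiparp and Ptgs2 were higher without overlap, with log2 ratios of 0.48, 0.42, 0.30 and 0.12. Of the 20 effectors, 19 had a ratio above 1 and 4 were higher without overlap, against 7.06% of all genes (median log2 ratio 0.12). Counts per gene do not separate the induced short forms of Homer1 from the longer ones.

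In 14 genes (0.0823% of 17015) each of the 3 high libraries was at least 1.5-fold above the low mean. Of these, 4 were early genes: Fos, Egr2, Nr4a1 and Atf3. The other 10, listed after their values were seen, were Kcne2, Kcnj13, Gm37509, Crocc2, Klk9, Tm6sf2, Anp32-ps, 1700016P03Rik, Lbhd2 and Maats1. Kcnj13 is, like Kcne2, a channel gene of the choroid plexus and reached 18.4 CPM in replicate 1. The other 8 were all under 5 CPM in every one of the 6 libraries.

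ER chaperones and folding factors were higher with Arc as a set, by small ratios. All 18 had a ratio above 1 and 14 did not overlap (7.06% of all genes were higher without overlap). None reached 1.5-fold, and the log2 ratios ran from 0.09 to 0.58 with a median of 0.29. Replicate 6 was above the low mean in all 18 (51.0% of all genes) and above each low library in 15 (27.5% of all genes). The list was known to respond to SOR in earlier results of these data, so its direction is not independent evidence.

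Hspa5 encodes BiP, the main HSP70 chaperone of the ER (ENSMUSG00000026864.13, chromosome 2, 34771970 to 34777547, plus strand). It was at 768.6, 760.1 and 672.9 CPM in the high and at 604.9, 466.4 and 518.4 CPM in the low libraries (log2 ratio 0.47, replicate 6 alone 0.34). Replicate 5, the low library nearest to the high ones in Arc, was also nearest in Hspa5. Creld2, a secreted factor of ER stress, had the largest ratio of the list: it was at 31.5, 30.5 and 26.1 CPM against 23.1, 18.0 and 18.0 CPM (log2 ratio 0.58, replicate 6 alone 0.40).

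Manf, another secreted ER factor, was at 73.2, 70.2 and 59.6 CPM against 58.1, 42.8 and 47.6 CPM (log2 ratio 0.45). Xbp1, the transcription factor of the unfolded protein response, was at 143.6, 142.0 and 137.0 CPM against 123.6, 99.5 and 104.6 CPM (log2 ratio 0.37, replicate 6 alone 0.33). Dnajc3, a cochaperone of BiP, was at 172.1, 176.1 and 162.3 CPM against 143.5, 124.2 and 134.6 CPM (log2 ratio 0.34). Replicates 2 and 1 were close to each other in all of these, although their Arc differed, and replicate 3 was lowest rather than replicate 4.

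The disulfide isomerases Pdia3, Pdia4 and Pdia6 had log2 ratios of 0.27, 0.33 and 0.35 and did not overlap. Herpud1, a factor of ER-associated degradation, followed Arc at every rank at a log2 ratio of 0.27. The members that overlapped were Calr, P4hb, Dnajb9 and Sdf2l1, with log2 ratios of 0.19, 0.11, 0.12 and 0.45. Sdf2l1, a BiP cofactor, was at 21.7, 21.6 and 15.7 CPM against 19.03, 11.2 and 13.03 CPM, with replicate 5 above replicate 6. Canx, the membrane lectin calnexin, differed least at a log2 ratio of 0.09.

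**Figure D3:**
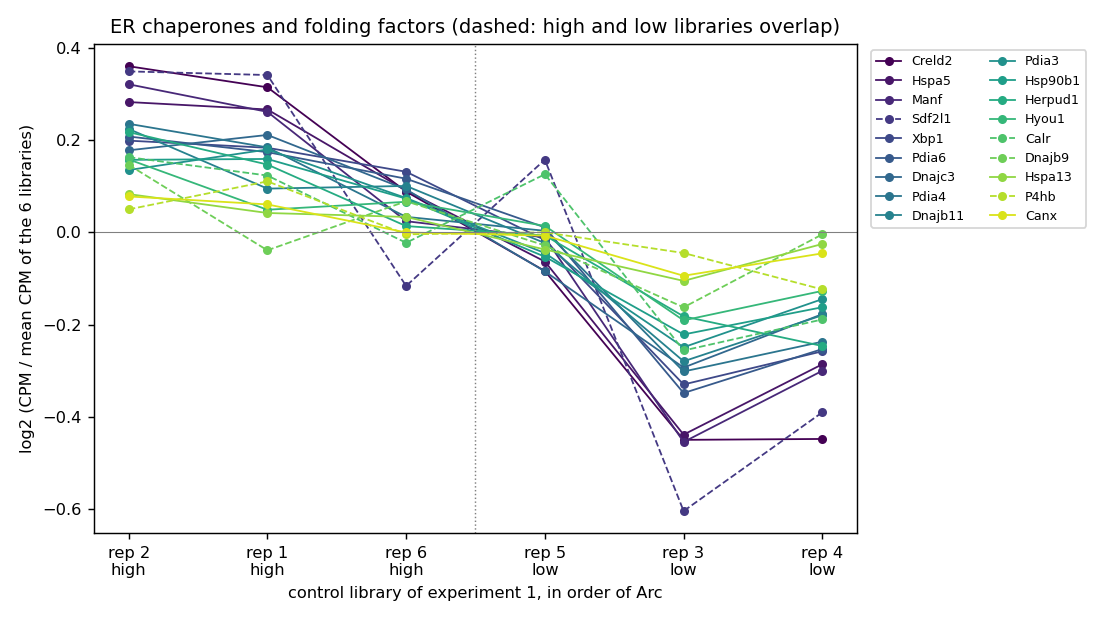
Log2 of CPM over the mean CPM of the 6 libraries (vertical axis) for the 18 ER genes in order of Arc (horizontal axis), darker lines for larger ratios and dashed lines where high and low libraries overlap. Replicates 2 and 1 lie together at the top, replicates 6 and 5 near the middle and replicates 3 and 4 at the bottom, and Creld2 spans the widest ratio (0.58) of the solid lines.

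Cytosolic heat shock genes were slightly higher, with 12 of 12 ratios above 1 (49.1% of all genes), 4 higher without overlap (7.06% of all genes) and a median log2 ratio of 0.17. Hspa1b, an inducible HSP70 gene, was at 25.9, 14.0 and 19.7 CPM against 16.7, 12.8 and 14.9 CPM (log2 ratio 0.43), and the groups overlapped. Hspa1b and its near copy Hspa1a can share reads, so the split of counts between them is uncertain. Targets of ATF4, the factor of the integrated stress response, had a ratio above 1 in 3 of 8 (49.1% of all genes; median log2 ratio -0.01). Of the 8, 2 were higher without overlap (7.06% of all genes), Atf4 itself and Ddit3, at log2 ratios of 0.17 and 0.15.

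Of 13 genes induced by glucocorticoids, the adrenal stress hormones, 8 had a ratio above 1 (49.1% of all genes) and 2, Sult1a1 and Errfi1, were higher without overlap (7.06% of all genes). The median log2 ratio was 0.09. Pdk4, a kinase that restrains glucose oxidation, had the highest log2 ratio of the list, 0.40, with overlap. Plin4, a lipid droplet coat gene, was at 14.2, 12.6 and 14.9 CPM in the high and at 12.6, 27.2 and 15.8 CPM in the low libraries (log2 ratio -0.41). Its highest value was in a low Arc library, replicate 3. Tsc22d3, Fkbp5 and Sgk1 overlapped at log2 ratios of 0.10, -0.01 and 0.12. Errfi1, an inhibitor of the EGF receptor, followed Arc at every rank at a log2 ratio of 0.25.

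Clock genes, 8 of 16 with a ratio above 1 (49.1% of all genes), had a median log2 ratio of 0.00. Of the 16, 1 was higher without overlap, close to the share of all genes (7.06%). This was Per2, a repressor of the clock that cyclic AMP signalling also induces, at 53.7, 48.9 and 54.4 CPM against 46.9, 34.9 and 35.7 CPM (log2 ratio 0.42, replicate 6 alone 0.47). Dbp, an output gene of the clock, was at a log2 ratio of -0.32 with overlap.

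With a mean of at least 5 CPM and no overlap, the 10 lowest log2 ratios of high to low Arc ran from -0.46 to -0.33, and none reached 1.5-fold. They were those of Ifit3, Zfp764, Naprt, Ddc, Slc25a10, Zfp941, Abcc10, Nectin4, Rtl3 and Plcg2, none of which is in a list. Ifit3, an interferon-induced gene, was at 4.75, 5.44 and 5.27 CPM in the high and at 6.61, 7.92 and 6.76 CPM in the low libraries. Ddc, the decarboxylase of dopamine and serotonin synthesis, was at 6.93, 5.70 and 5.66 CPM against 7.64, 8.86 and 7.14 CPM. All 10 had a log2 ratio below 0 for replicate 6 alone as well, between -0.48 and -0.17. In the 13 libraries outside the ranking, described below, Ifit3 went the other way: its slope on Arc was 0.83 (SE 0.279, edgeR unadjusted p = 0.00944), and it did not pass adjustment. Each high library was at least 1.5-fold below the low mean in 4 genes (0.0235%), all under 3 CPM and listed after their values were seen: Ackr2, Gypc, 4930429F24Rik and 4930538E20Rik.

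The markers of the tissue's cell types were present in high and low libraries. Prox1, which defines dentate granule cells, was between 87.7 and 97.4 CPM in all 6. Median log2 ratios were -0.12 for 10 dentate granule cell genes, -0.07 for CA1, -0.06 for CA2, 0.03 for CA3 and -0.03 for interneurons. They were 0.01 for astrocytes, -0.09 for microglia, -0.06 for oligodendrocytes, 0.02 for endothelium and 0.03 for blood. Markers of neighbouring regions were at -0.05 for neocortex, 0.10 for striatum and 0.01 for thalamus, and nuclear-retained long RNAs were at -0.06. Markers of meninges and vessel wall were at -0.03, and only Igf2, which meninges and choroid plexus both express, was at 1.07 with overlap. Of the 104 genes in all these lists, 2 were higher and 5 lower without overlap, where 7.06% and 6.18% of all genes were. Microglia markers were a little lower as a sum: they summed to 331.3 to 342.4 CPM in the high and to 346.9 to 373.6 CPM in the low libraries, without overlap. Of the 8 microglia markers, 7 had a ratio below 1 (50.9% of all genes) and 1 was lower without overlap. Replicate 6 lay below all low libraries in 5 of the 8, where it did so in 24.1% of all genes. The part that choroid plexus RNA or the mix of cells played in the ratios was not tested, and replicate 6, with choroid plexus markers at the level of the low libraries, was above the low mean in 54 of the 63 early and activity genes and in all 18 ER genes (51.0% of all genes).

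**Figure D4:**
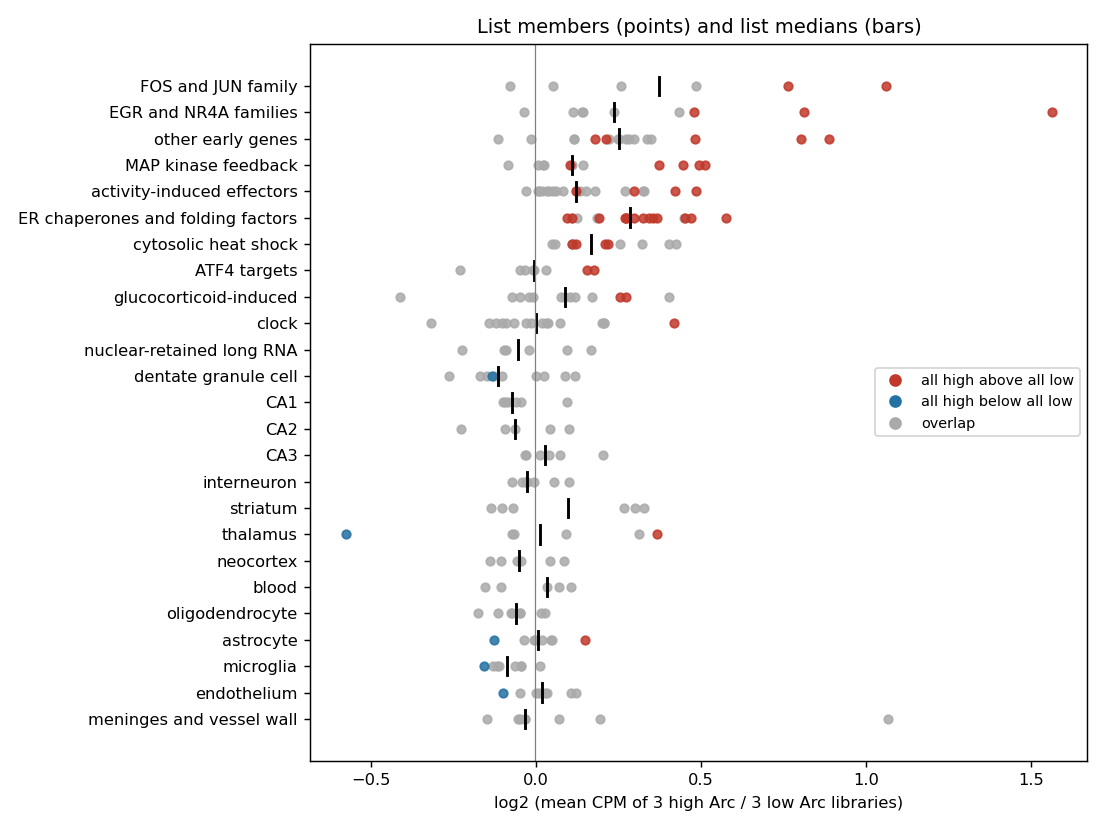
Log2 ratio of mean CPM of the 3 high to the 3 low Arc libraries (horizontal axis) for each member of the lists (rows; choroid plexus, at 2.15 to 7.61, left out), with a bar at each list's median and a line at the median of all genes. Red points, higher without overlap, gather in the early and ER lists (19 of 63 and 14 of 18), while the medians of the cell type lists lie between -0.12 and 0.10.

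The genes that varied with Arc were next examined in libraries that the ranking did not use. In experiment 2, 4 SOR libraries were set against 4 homecage libraries with edgeR's quasi-likelihood test, Benjamini-Hochberg adjusted over 22305 genes. After SOR, 20 genes (0.0897%) rose and none fell at an adjusted p under 0.05, and 818 (3.67%) and 877 (3.93%) had an unadjusted p under 0.05 in each direction. DESeq2 called 116. Arc itself rose by 0.79 on the log2 scale (SE 0.0991, edgeR adjusted p = 0.0131), with all 4 SOR libraries above all 4 homecage libraries. Choroid plexus markers had estimates above 0 as well, in 8 of 8 genes (51.5% of all genes; median log2 difference 2.16). Of these, 4 had an unadjusted p under 0.05 (3.67% of all genes) and none was called. They summed to 1001, 2207, 21.7 and 58.7 CPM in SOR replicates 1 to 4, and to 71.2, 181, 80.5 and 46.2 CPM in homecage replicates 1 to 4, so the groups overlapped. Their part in the changes after SOR was not tested.

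Of the 65 early and activity genes tested, 2 rose (0.0897% of all genes did): Fos and Cdkn1a. Cdkn1a, a cell cycle inhibitor gene, changed by 1.54 on the log2 scale (edgeR adjusted p = 0.0404), and it overlapped between high and low Arc at a log2 ratio of 0.27. SOR replicates 1 to 4 held 8.95, 8.64, 8.81 and 10.5 CPM of Fos, and homecage replicates 1 to 4 held 4.10, 2.89, 4.51 and 5.41 CPM. The groups did not overlap, and the log2 change was 1.17 (SE 0.182, edgeR adjusted p = 0.0432). The same SOR libraries held 28.1, 27.5, 20.9 and 21.8 CPM of Nr4a1, and the homecage libraries 19.4, 20.3, 15.7 and 19.7 CPM. Its log2 difference of 0.44 did not pass (edgeR adjusted p = 0.490), nor did that of Junb at 0.51 (edgeR adjusted p = 0.336). Npas4, higher with Arc in the ranked libraries, was at a log2 difference of -0.18 (edgeR adjusted p = 0.830). Over the 65 early and activity genes tested, 56 had an estimate above 0, where 51.5% of all genes did, and 24 had an unadjusted p under 0.05, all higher (3.67% of all genes). Other lists had estimates above 0 as well: 13 of 13 glucocorticoid-induced genes (median log2 difference 0.55) and 12 of 12 cytosolic heat shock genes. Of these, 12 and 9 had an unadjusted p under 0.05, all higher, and 2 and 1 passed adjustment (0.0897% of all genes).

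Of the 18 ER genes, 17 had an estimate above 0 after SOR (51.5% of all genes), and 5 rose (0.0897% of all genes did): Hspa5, Xbp1, Manf, Sdf2l1 and Dnajc3. This list was known to respond to SOR in earlier results of these data, so these counts are not independent evidence. For Hspa5, the 4 SOR libraries had levels of 660.0, 601.7, 769.1 and 567.0 CPM, all above the 407.8, 325.9, 393.9 and 350.9 CPM of the 4 homecage libraries. Its log2 change was 0.87 (SE 0.119, edgeR adjusted p = 0.0228). Xbp1 was at 139.2, 124.7, 128.0 and 128.9 CPM against 83.8, 77.1, 86.3 and 84.8 CPM (log2 change 0.70, edgeR adjusted p = 0.00879). The low Arc libraries of experiment 1 held Hspa5 between the homecage and SOR libraries of experiment 2, apart from replicate 5 at 604.9 CPM, although levels of separate experiments are set side by side here without a test.

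Of the 19 genes other than Arc that rose after SOR, 14 had a ratio above 1 between high and low Arc libraries (49.1% of all genes). Without overlap, 9 were higher (7.06% of all genes) and none was lower. The 9 were Fos, Hspa5, Manf, Xbp1, Dnajc3, Gjb6, Dnajb5, Gpt2 and P4ha1. P4ha1, a collagen prolyl hydroxylase gene, was at 157.3, 140.01 and 128.8 CPM in the high and at 119.9, 98.3 and 98.9 CPM in the low libraries (log2 ratio 0.43). Dnajb5, a heat shock cochaperone gene, followed Arc at every rank at a log2 ratio of 0.21. Plin4 and Tsc22d3, which rose after SOR by 2.10 and 1.04 on the log2 scale (edgeR adjusted p = 0.000236 and 0.00992), overlapped between high and low Arc. Over all genes, 820 of the 1200 that were higher with Arc without overlap and tested had an estimate above 0 after SOR (68.3%), against 55.4% of all 17014 genes described and tested in both. Of the 1051 that were lower with Arc without overlap, 586 had an estimate above 0 (55.8%), close to the share of all genes.

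These calls rest on few libraries. Without homecage replicate 1, 2 or 3 of experiment 2, only 1 gene was called in each case, 2 without SOR replicate 1, 7 without homecage replicate 4 and 13 without SOR replicate 2. Without SOR replicate 3, the shallowest library, 50 were called. In tTA+ mice alone, 3 against 2, edgeR called none, with 200 genes higher and 174 lower at an unadjusted p under 0.05. With tTA in the model, which differs in share between the groups, 11 were called, and Fos was at a log2 change of 1.12 (edgeR adjusted p = 0.0632).

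The last comparison asked whether genes vary with Arc between libraries of the same group outside the ranking. The slope of log2 expression on log2 Arc CPM was fitted within the 5 DN, 4 SOR and 4 homecage libraries together, 13 in all, with group and tTA in the model and 1 slope for all groups. Of 23314 genes, edgeR called none at an adjusted p under 0.05 (0.0% in each direction). At an unadjusted p under 0.05, 251 genes (1.08%) had a positive and 244 (1.05%) a negative slope. DESeq2 called 1 gene, Fos, and limma-voom none. The 72 genes higher past 1.5-fold in the ranking did not keep their direction as a whole: 19 had a slope above 0 (median -0.50), and at an unadjusted p under 0.05, 5 were positive and 11 negative. Of the 1200 higher without overlap, 768 had a slope above 0, against 9355 of all 17014 genes described and tested, and 17 were positive and 19 negative at an unadjusted p under 0.05. The DN mice carry a transgene that the ranked controls lack, and Arc spanned a narrower range within these groups.

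Fos had the lowest p of all 23314 genes. Its slope was 1.81 log2 units per log2 unit of Arc (SE 0.288, edgeR unadjusted p = 1.50e-05, adjusted p = 0.350), so it did not pass. In DN replicates 1 to 5, where Arc was at 118.9, 84.5, 136.4, 116.3 and 97.3 CPM, Fos was at 8.56, 5.96, 15.1, 11.6 and 7.11 CPM. The highest and lowest Fos were in the libraries of highest and lowest Arc. The slope was 1.90 in the DN libraries alone and 1.51 in experiment 2 alone, and between 1.59 and 1.92 with any 1 library left out. DESeq2 gave a slope of 1.79 with an adjusted p of 0.000117.

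**Figure D5:**
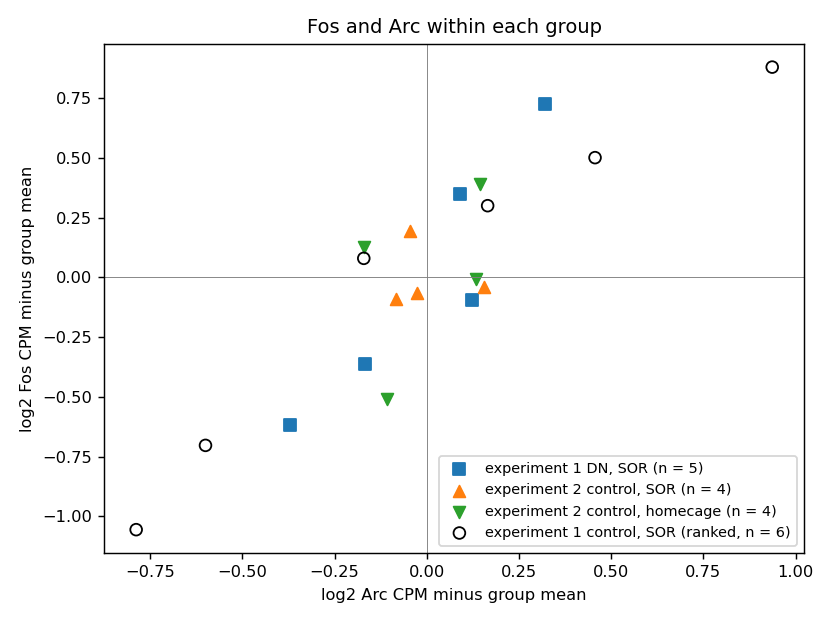
Log2 Fos CPM against log2 Arc CPM, each minus the mean of its group, in the 13 libraries outside the ranking (filled) and the 6 ranked control libraries (open circles), 1 point per library. Arc spans 84.5 to 136.4 CPM in the DN libraries, a narrower range than in the ranked ones, and Fos is highest in the DN library of highest Arc, while the 4 SOR libraries of experiment 2 vary little in Arc.

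Of the 65 early and activity genes tested, 48 had a slope above 0, where 52.6% of all genes did, and 16 had an unadjusted p under 0.05, all positive (1.08% of all genes). None passed adjustment. By list they were Fos, Fosl2 and Junb, then Egr2, Nr4a1 and Nr4a2, then Npas4, Gadd45b and Nfil3, then Dusp1, Dusp6 and Spry4, and last Homer1, Pcsk1, Rgs4 and Scg2. Slopes were 0.64 for Junb (SE 0.221), 0.56 for Nr4a1 (SE 0.215), 1.27 for Egr2 (SE 0.511), 1.49 for Npas4 (SE 0.460) and 0.57 for Dusp6 (SE 0.164). Egr1, Egr3, Bdnf and Plk2, among others, had an edgeR unadjusted p above 0.05. Atf3, among the largest early ratios in the ranked libraries, had a slope of -0.32 (SE 0.481, edgeR unadjusted p = 0.518). In experiment 2 alone the slope of Egr2 was -0.51, the opposite sign.

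The ER list had 17 of 18 slopes above 0 (52.6% of all genes), with a median of 0.16, and none had an unadjusted p under 0.05. Hspa5 had a slope of 0.14 (SE 0.277), which changed sign in 3 of the alternatives run, and Xbp1 of 0.30 (SE 0.191). With 1 library left out, the slope of Xbp1 was between 0.0396 and 0.564. The choroid plexus markers went the other way in these libraries: 8 of 8 slopes were below 0, where 52.6% of all genes had one above 0. Their median was -5.09, and 6 had an unadjusted p under 0.05 (1.05% of all genes). Among the DN libraries only replicate 2, with the lowest Arc of its group, was far above the rest: it held 1666 CPM of the summed markers, and the others held 28.7 to 174 CPM. The part of choroid plexus RNA in these slopes was not tested.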

How the data were processed

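The authors deposited whole-number counts for 51789 genes in 19 libraries in a single table. Per the submitters' processing notes, the tools were STAR, SAMtools 1.6 and featureCounts 1.4.4 on mm10. The annotation and the use of strand are not given in the sources used here, so counts of overlapping and antisense genes are uncertain. Extraction was by Trizol and depletion of ribosomal RNA by Ribo-Zero Gold, per the labels' protocols. Symbols and positions came from GENCODE M21 (GRCm38), which held 51596 of the identifiers, and promoter windows from RefSeq (GRCm38.p6).

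Levels are plain CPM, the count over the library total. A gene was described at a mean of at least 1 CPM over the 6 libraries, and past the fold at 1.5. The high and low groups were ranked by Arc and had no test. Both tests used libraries outside the ranking: edgeR 4.0.16 quasi-likelihood F tests in R 4.3.3 (robust, TMM, filterByExpr, two-sided), with Benjamini-Hochberg adjustment over all genes tested and calls at an adjusted p under 0.05. One set SOR against homecage in experiment 2. The other took the slope on log2 Arc CPM centred within each group, with group and tTA in the model. DN against control was not used because it shares the ranked libraries. Both fits were tested on simulated data. No molecular identifiers are recorded, so reads are not independent molecules.

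The members, the lists, the rule for the genes named and the tests were chosen with earlier results of these data known. The rule named Arc, the 10 highest and 10 lowest ratios at 5 CPM or more without overlap, list members past 1.5-fold or called, genes that rose after SOR without overlap between high and low Arc, and up to 4 abundant examples per list. Genes with the order of Arc, genes past the fold in each high library and members with an unadjusted p under 0.05 for the slope were added after their values were seen. Alternatives were other scalings and filters, geometric means, 2 against 2 libraries, a ratio of 1.2, DESeq2 1.42.0, limma-voom (3.58.1), a replicate block, tTA in or out of the model, subsets of libraries, and each library left out in turn.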

Additional observations from a re-analysis of the deposited data

Results flagged for a closer look

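A library was listed here where its gap to the nearest library of its group exceeded Dixon's limit. Of 118 gene and group pairs examined, 14 were past it. Chance alone flags about 1 in 20 groups, but the genes were named in part for their high ratios and several move together, so the count cannot be read against that rate. Among the ranked controls, replicate 1 stood alone in 10 genes, 4 of them choroid plexus markers (Ttr, Prlr, Clic6 and Folr1): Ttr at 3842 CPM, Prlr at 78.1 CPM, Clic6 at 59.3 CPM, Tmem72 at 44.1 CPM, Slc2a12 at 33.4 CPM, Folr1 at 32.0 CPM, Col8a1 at 28.8 CPM, Kcnj13 at 18.4 CPM, Igf2 at 63.1 CPM and Htr2c at 62.8 CPM. Plin4 stood alone in control replicate 3, a low Arc library, at 27.2 CPM, against a median of 14.5 CPM in the 6. Outside the ranking, Ttr reached 1508 CPM in DN replicate 2, where the group's median was 21.1 CPM. In experiment 2, Fos was at 10.5 CPM in SOR replicate 4 and Junb at 50.4 CPM in SOR replicate 3, each above the other 3 SOR libraries.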

How the results depend on the processing

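The number of genes higher with Arc past 1.5-fold without overlap (72) was 434 at a mean of at least 0.1 CPM, 26 at 5 CPM, 42 with geometric means, 284 with 2 against 2 libraries and 366 at a ratio of 1.2. The number lower (21) was 318, 0, 2, 111 and 213 in the same order, and 153 for replicate 6 alone, an alternative chosen after seeing the data. Leaving out 1 ranked library gave 67 to 236 higher and 23 to 63 lower: 236 higher without replicate 6, 141 without replicate 3 and 116 without replicate 5, and 63, 49, 39 and 36 lower without replicates 6, 5, 1 and 2. The causes were not tested. After SOR, the 20 calls became 116 with DESeq2, 36 with no filter on low counts, 11 with tTA in the model, 0 by edgeR in tTA+ mice alone (200 higher and 174 lower at an unadjusted p under 0.05) and 1 to 50 with 1 library left out. For the slope on Arc, DESeq2 called 1 gene (Fos) and the fit with no filter called 1 other, Mael, chosen after its value was seen. Leaving out any 1 library gave 0 to 0 calls by edgeR. Same-numbered SOR and homecage libraries of experiment 2 correlated at 0.0471, 0.391, 0.0455 and 0.127, which does not settle whether they share more than a number. The main fit did not pair them. With the replicate block, SOR gave 9 calls and the slope 0, and no SOR library but replicate 2 correlated best with its own number. Among the named results, none of the ratios without overlap changed sign. Of estimates that were not called, the slope of Hspa5 was -0.35 with the replicate block and -0.0771 (without DN replicate 2) to 0.483 (without DN replicate 3) with 1 library left out, that of Egr2 was -0.51 in experiment 2 alone, and the difference of Npas4 after SOR was between -0.304 (without homecage replicate 3) and 0.0531 (without homecage replicate 4). Counting depth limits genes under about 1 CPM, such as Egr2 in replicate 4, and 3 against 3 libraries ranked by an outcome allow no test.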

Other observations

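Over all 17015 genes other than Arc, 29 (0.17%) kept the order of Arc in all 6 libraries, list members such as Fos and Junb included, and 35 (0.206%) had the reverse order. The genes named here are in no list and were chosen after their values were seen. Vegfa, the endothelial growth factor, was at 52.2, 48.4 and 46.4 CPM in the high and at 43.0, 41.9 and 40.6 CPM in the low Arc libraries. Its log2 ratio was 0.23, and its slope on Arc in the 13 other libraries was 0.52 (edgeR unadjusted p = 0.0279). Tob1, an antiproliferative gene of the BTG family, was at 25.6, 25.3 and 23.5 CPM against 22.1, 21.05 and 20.5 CPM (log2 ratio 0.23). Its slope was 0.21 (edgeR unadjusted p = 0.337), and between 0.0181 and 0.281 with 1 library left out. Ccdc117 was at 30.6, 28.1 and 25.0 CPM against 23.3, 21.6 and 20.2 CPM (log2 ratio 0.36), and at a log2 difference of 0.30 after SOR (edgeR unadjusted p = 0.00743). None of the 3 passed adjustment in either fit.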
